A study of Mus musculus with 6 samples.

Results

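The transcripts described here are those of respiratory complexes III, IV and V and of cytochrome c, measured by RNA-seq in leukaemic granulocyte-macrophage progenitors (L-GMP). Members were the genes whose symbols begin with Uqcr, Atp5 or Cox followed by a digit, together with Cyc1, Cycs and the mitochondrially encoded genes mt-Cytb, mt-Co1, mt-Co2, mt-Co3, mt-Atp6 and mt-Atp8. Of 65 matching symbols, 5 were dropped as pseudogenes, which left 60 genes of the 47643 in the table, 54 encoded in the nucleus and 6 in mitochondrial DNA. They comprised 10 subunits of complex III, cytochrome c, 20 subunits of complex IV, 9 assembly factors of complex IV, the supercomplex factor Cox7a2l, 17 subunits of complex V, and 2 genes matched by name alone, Atp5s and Atp5sl.

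Complex III passes electrons from ubiquinol to cytochrome c, and complex IV, cytochrome c oxidase, passes them on to oxygen. Both pump protons across the inner mitochondrial membrane, and complex V, ATP synthase, lets the protons back through a rotating ring of c subunits to make ATP. Most subunits are encoded in the nucleus and a few, among them the catalytic core of complex IV, in mitochondrial DNA, and several complex IV subunits exist as a general isoform and one known from striated muscle, lung or testis.

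The 6 libraries were 3 wild-type (WT) and 3 knockout (KO) replicates of L-GMP sorted from C57BL/6 mice. The KO cells were labelled as a knockout of both Prkaa1 and Prkaa2, which encode the alternative alpha subunits that give AMPK, a kinase activated by AMP when cellular energy runs low, its catalytic activity. The labels name neither the oncogene, the Cre or other means of deletion, the age of the mice nor any treatment, and do not say whether the replicates came from separate mice, so a p-value here reflects no more than how these libraries vary, which may be technical. In a bulk library, fewer cells of a type and less RNA per cell cannot be told apart.

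Reads recovered from the deposited values came to between 11390343 and 16415932 per library. Prkaa1 stood at 2.01, 2.20 and 1.80 FPKM (reads scaled by the length of the gene and the size of the library) in WT and at 1.11, 0.735 and 0.548 in KO, and Prkaa2 had 2 reads in WT and 4 in KO. Prkaa1 RNA was thus lower in KO but not absent, and Prkaa2 was too weakly read in WT to show a loss; a value over the whole gene does not show a deleted part, and the labels do not say which part was deleted. The summed FPKM of a library was 463683 to 475654 in WT and 649611 to 653819 in KO. Summed FPKM of 5 neutrophil markers was 282 to 296 in WT and 70787 to 72171 in KO, with all 5 above 0 in both genotypes. Mean FPKM in WT and KO was 205 and 52072 for S100a8, and 67.7 and 14560 for S100a9. It was 9.83 and 4568 for Ngp, 0.096 and 155 for Ltf, but 6.74 and 10.3 for Camp, so the sums do not describe each marker. Summed FPKM of 5 mast cell, basophil and eosinophil markers was 26.9 to 33.3 in WT, where Prss34 and Epx were at 0, and 528 to 562 in KO. Of erythroid genes, Klf1 had 33 reads in WT and 353 in KO, and Car2 1 and 1666. Of the 8 markers of the L-GMP label all were above 0, and their means differed in both directions (mean ± SD, n = 3). Kit was at 0.250 ± 0.065 FPKM in WT and 1.43 ± 0.024 in KO, Elane at 1758 ± 55 and 7923 ± 106, and Mpo at 159 ± 1.9 and 442 ± 4.9. Spi1 was at 191 ± 5.2 and 228 ± 3.3, and Cebpa at 3.51 ± 0.53 and 5.59 ± 0.62. Lower in KO were Cd34 (27.8 ± 0.84 and 3.51 ± 0.16), Fcgr3 (129 ± 2.3 and 66.8 ± 4.5) and Ptprc (4.70 ± 0.18 and 3.98 ± 0.14). Of 3 T cell genes, Cd3e and Cd3g were at 0 in both genotypes and Cd3d had 1 read in WT and 17 in KO. The part of these cell-type differences in the results below was not tested.

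The sequences in this paragraph show how far paired isoforms, and a gene and its pseudogene, differ in their letters. The coding sequences of Cox6a1 and Cox6a2, alternative forms of complex IV subunit 6a, were 66.6% identical over 287 aligned bases, and their longest shared run was 12 bases. The gap-free stretch of 120 bases with the fewest differences is shown, with the 31 differing bases in capitals.
Cox6a1: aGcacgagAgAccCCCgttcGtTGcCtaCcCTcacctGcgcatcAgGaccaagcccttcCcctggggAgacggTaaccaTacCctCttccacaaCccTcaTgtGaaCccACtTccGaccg
Cox6a2: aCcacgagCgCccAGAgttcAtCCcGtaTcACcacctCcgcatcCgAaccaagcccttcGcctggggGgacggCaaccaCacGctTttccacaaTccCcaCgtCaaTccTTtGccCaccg
The same comparison gave 70.3% identity for Cox4i1 and Cox4i2, 64.9% for Cox6b1 and Cox6b2, 66.9% for Cox7a2 and Cox7a1, 68.1% for Cox8a and Cox8b, and 72.6% to 78.7% for the 3 Atp5g genes. The longest run shared by any of these pairs was 20 bases, between Atp5g1 and Atp5g2. Atp5g1 also has an almost exact copy elsewhere. Its coding sequence of 408 bases matched the processed pseudogene Gm10039 (chr11:100361716-100362126, minus strand, GRCm38) with 1 mismatch, in capitals in these 60 bases.
Atp5g1: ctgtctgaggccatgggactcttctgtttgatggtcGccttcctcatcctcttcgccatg
Gm10039: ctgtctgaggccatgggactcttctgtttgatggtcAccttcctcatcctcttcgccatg

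Transcripts of complexes III to V moved in both directions, mostly by small amounts. Of the 60 members, 5 were at 0 in every library, 3 were above 0 with a mean under 1 FPKM, and 52 were tested. In KO 25 were higher, 21 were lower and 6 did not pass the test (limma adjusted p under 0.05 over 9108 genes), and 37 of the 52 differed by less than 0.5 on the log2(FPKM + 1) scale. Across all genes tested 38.0% were called higher, 40.4% lower and 78.4% in either direction, so that a call alone says little about a member. Only 5 members, Cox6a2, Cox10, Atp5sl, Atp5g1 and Cox18, changed at least 2-fold on that scale, all downward, against 26.5% of all genes in either direction. The median difference was 0.02 over the members and -0.02 over all genes. KO values lay wholly above WT for 25 members, wholly below for 20 and overlapped for 7, against 80.6% of all genes without overlap.

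The direction of the smaller changes depended on how the libraries were scaled to each other. Rescaling every library to the same summed FPKM, called rescaled from here on, moved the median of all genes by -0.40. The sums include S100a8, at 205 FPKM in WT and 52072 in KO, and S100a9, at 67.7 and 14560. A larger KO sum lowers every gene in KO against WT on rescaling, and the part of single genes in it was not tested. With quantile normalization the median of all genes was -0.006. Rescaled, 7 members were higher, 39 lower and 6 did not pass, against 22.8% of all genes higher and 59.1% lower. The rescaled median was -0.45 over the members and -0.42 over all genes. Higher calls made up 54.3% of the called members as deposited and 15.2% rescaled, and 48.5% and 27.8% of all called genes. With the deposited, rescaled and quantile-normalized values alike, 7 members were higher (mt-Cytb, Uqcrh, Cox6a1, Cox6b2, Cox19, Atp5f1 and Atp5h) and 19 were lower. Of the 25 members higher as deposited, 12 were lower rescaled and 6 did not pass.

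**Figure D1:**
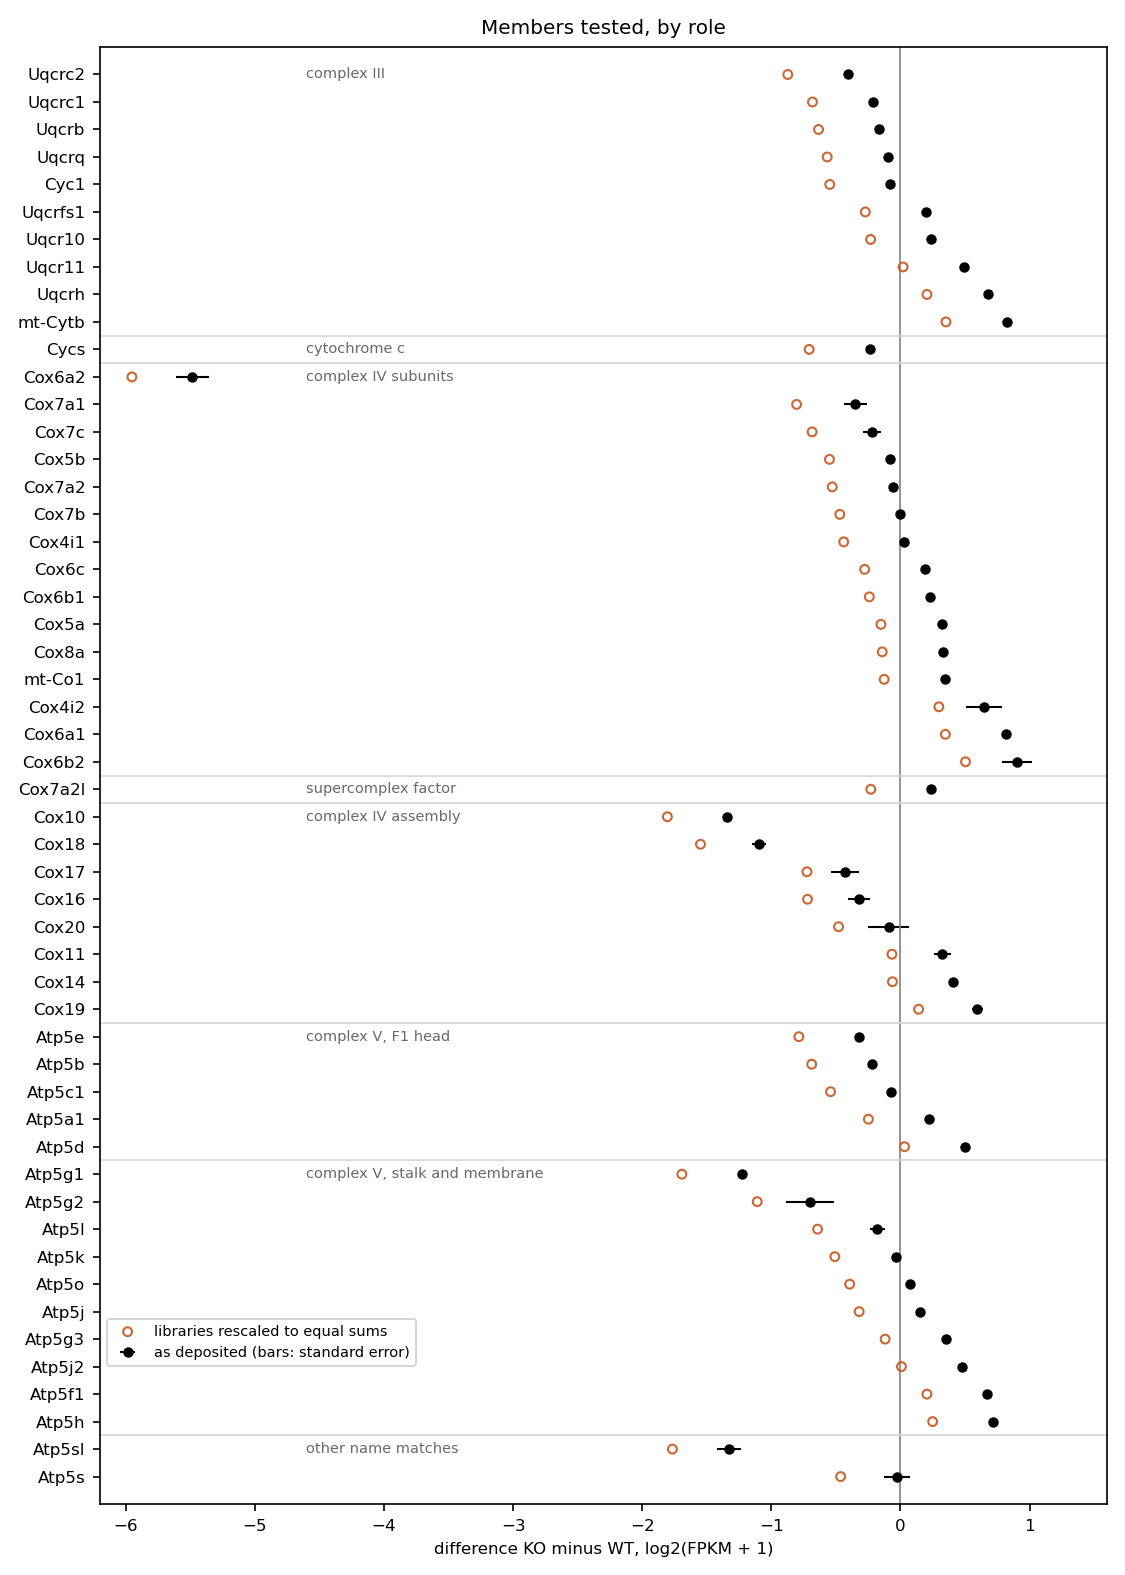
Difference KO minus WT on the log2(FPKM + 1) scale for the 52 tested members, grouped by role. Filled points are the deposited values with bars of 1 standard error (n = 3 libraries per genotype) and open points the libraries rescaled to equal sums; Cox6a2 stands apart at -5.48, and most other members lie within 0.5 of 0 as deposited.

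Within complex III the 10 subunits split evenly as deposited, 5 higher and 5 lower, against 38.0% and 40.4% of all genes; rescaled, 2 were higher, 7 lower and 1 did not pass, against 22.8% and 59.1%. The subunits of the core fell slightly or rose slightly, while the mitochondrially encoded cytochrome b and the hinge protein rose most. Cytochrome b, mt-Cytb (ENSMUSG00000064370, chrM:14145-15288), which holds the quinone sites, read 1909, 1888 and 1807 FPKM in WT and 3268, 3338 and 3310 in KO. It was the most abundant member in both genotypes, and its KO values were well clear of WT. The difference was 0.82 (SE 0.02, limma adjusted p = 6.65e-08), and 0.35 rescaled. Uqcrh (ENSMUSG00000063882, chr4:116066965-116075071), the acidic hinge protein that helps cytochrome c dock, read 378, 379 and 391 FPKM in WT and 599, 616 and 619 in KO. All KO libraries were above all WT libraries, with a difference of 0.68 (SE 0.02, limma adjusted p = 1.5e-07), and 0.21 rescaled.

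Cyc1, cytochrome c1, read 859, 882 and 915 FPKM in WT and 835, 826 and 855 in KO. The groups nearly touched, and its call of -0.08 was lost on leaving out WT replicate 2 or 3 or KO replicate 1 or 2. Uqcrfs1, the Rieske iron-sulphur protein, read 313, 332 and 326 FPKM in WT and 371, 374 and 368 in KO, a difference of 0.20 that became -0.27 rescaled. The core proteins Uqcrc1 and Uqcrc2, which face the matrix, were lower. Uqcrc1 read 624, 639 and 667 FPKM in WT and 560, 546 and 560 in KO, a difference of -0.21. Uqcrc2 read 132, 134 and 136 FPKM in WT and 103, 97.8 and 103 in KO, a difference of -0.40. Both groups were without overlap, and the differences rescaled were -0.68 and -0.87. Uqcrb, which binds near the quinone site, read 212, 216 and 213 FPKM in WT and 187, 194 and 190 in KO, a difference of -0.17. The small subunits Uqcr10, Uqcr11 and Uqcrq differed by 0.24, 0.49 and -0.10, and rescaled by -0.23, 0.02 and -0.57. Cytochrome c itself, Cycs, the mobile carrier between complexes III and IV, read 134, 131 and 130 FPKM in WT and 113, 111 and 111 in KO. Its KO values lay below WT, by -0.24 (SE 0.02, limma adjusted p = 4.94e-05), and by -0.71 rescaled. Gm10053 matches its transcript over 946 bases at 99.9% and was listed at 5.88 FPKM in WT and 5.14 in KO. The testis form Cyct was at 0 in all libraries.

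Among the 20 subunits of complex IV, 15 were tested: as deposited 8 were higher, 4 lower and 3 did not pass (38.0% and 40.4% of all genes were higher and lower), and rescaled 2 were higher, 12 lower and 1 did not pass (22.8% and 59.1%). The largest change of any member was the fall of Cox6a2, the form of subunit 6a known from heart and skeletal muscle, beside a rise of the general form Cox6a1. Cox6a2 (ENSMUSG00000030785, chr7:128205435-128206387) read 81.6, 77.6 and 81.7 FPKM in WT and 0.46, 1.03 and 1.02 in KO, or 2444 reads against 21. Every WT library was far above every KO library, and the WT mean FPKM was 95.8-fold the KO mean. On the log2(FPKM + 1) scale, which shrinks such a ratio, the difference was -5.48 (SE 0.13, limma adjusted p = 3.43e-08). It is one of 2 members, with Cox17, whose KO mean was under 1 FPKM and which passed the minimum through WT alone, so its call is no support beyond the values. Of its exonic bases 10.3% are shared with Itgad, which was at 0.0052 ± 0.0091 FPKM in WT and 0 in KO. Cox6a1 (ENSMUSG00000041697, chr5:115345642-115348981) read 881, 893 and 895 FPKM in WT and 1574, 1558 and 1577 in KO. The groups did not overlap, and the difference was 0.82 (SE 0.01, limma adjusted p = 1.08e-08), or 0.35 rescaled.

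A list of 12 markers of striated muscle was read beside Cox6a2. Their summed FPKM was 5.21 to 6.42 in WT and 3.03 to 3.13 in KO, and 1 of the 12 averaged at least 1 FPKM in each genotype, Ckm in WT and Mb in KO. Ckm, muscle creatine kinase, went from 4.12 ± 0.083 FPKM in WT to 0.209 ± 0.13 in KO and passed the minimum for testing through WT alone, while Mb, myoglobin, was at 0.080 ± 0.069 and 1.39 ± 0.25 FPKM, higher in KO, and was below that minimum. Tnnt2 was at 0 in all libraries, and Myod1, Myh6, Myh7 and Des were at 0 or under 0.1 FPKM in each. The other muscle forms of complex IV did not share the size of the Cox6a2 change. Cox7a1 read 26.3, 25.1 and 30.1 FPKM in WT and 19.7, 23.8 and 19.9 in KO, a difference of -0.35 (SE 0.09, limma adjusted p = 0.00975). Cox8b had no read in WT, where a count of 0 allows up to 3, and 5 reads in KO, and was not tested.

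**Figure D2:**
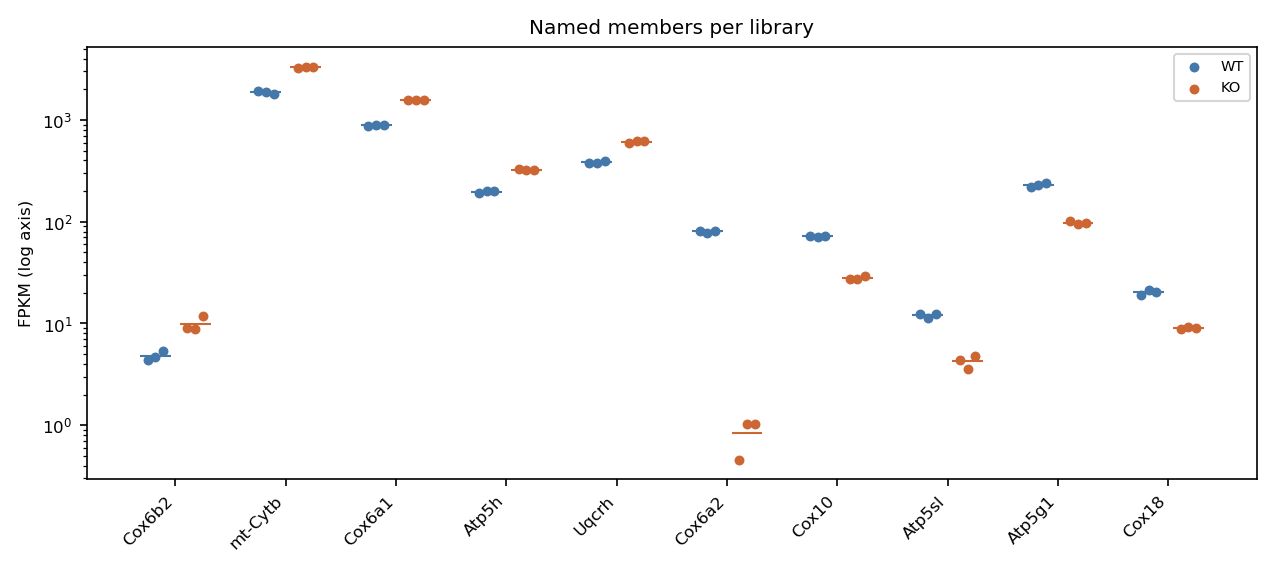
FPKM per library (log axis) of the 5 members with the largest rise and the 5 with the largest fall among those that passed the test; points are libraries and lines the means of 3. In each of the 10 the WT and KO libraries do not overlap, and Cox6a2 drops from 80.3 to 0.838 FPKM.

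The remaining paired subunits of complex IV were carried by the general form in both genotypes. Cox4i1, the regulatory subunit 4, read 1448, 1489 and 1494 FPKM in WT and 1519, 1516 and 1492 in KO, and the groups overlapped (difference 0.03, limma adjusted p = 0.14). Rescaled, the same difference was -0.44 and passed. Cox4i2, its form known from lung, read 2.5, 2.59 and 2.25 FPKM in WT and 4.07, 5.68 and 3.63 in KO, from 87 and 129 reads. Its difference of 0.65 (SE 0.14, limma adjusted p = 0.00369) did not pass rescaled, at 0.30. Cox6b1 read 1378, 1423 and 1450 FPKM in WT and 1654, 1677 and 1653 in KO, a difference of 0.23 that was -0.24 rescaled. Cox6b2 (ENSMUSG00000051811, chr7:4751792-4753094), the form of subunit 6b known from testis, read 4.40, 4.69 and 5.31 FPKM in WT and 9.10, 8.87 and 11.7 in KO. That was the largest rise on the log2 scale among the members, 0.90 (SE 0.11, limma adjusted p = 0.000208) and 0.50 rescaled, on 239 and 409 reads. Cox7a2 read 886, 935 and 954 FPKM in WT and 910, 858 and 897 in KO, with overlap (limma adjusted p = 0.154). Cox8a read 1046, 1074 and 1124 FPKM in WT and 1385, 1352 and 1339 in KO, a difference of 0.33 that was -0.14 rescaled. Cox7b read 276, 292 and 275 FPKM in WT and 277, 285 and 281 in KO, the smallest difference of any tested member (limma adjusted p = 0.995). Cox7b2 and Cox8c were at 0 throughout.

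Of the unpaired subunits, Cox5a, which binds subunit 4 on the matrix side, read 664, 641 and 654 FPKM in WT and 821, 819 and 804 in KO. Its difference was 0.32, and -0.15 rescaled. Cox5b, the zinc-binding subunit, read 502, 517 and 497 FPKM in WT and 470, 484 and 479 in KO, a difference of -0.08 (-0.55 rescaled). Cox5b is uncertain, because Gm11273 (38.5 FPKM in WT, 41.2 in KO) matches it over 390 bases at 99.2%. Cox6c differed by 0.19 (-0.28 rescaled) and Cox7c by -0.22, where the groups overlapped and the call was lost on leaving out WT replicate 1 or 2 or KO replicate 2 or 3. Cox7a2l, which joins complexes III and IV in supercomplexes, read 145, 142 and 144 FPKM in WT and 174, 166 and 168 in KO, a difference of 0.24 that was -0.23 rescaled. Ndufa4, a complex IV subunit with a complex I name and so outside the members, rose from 391 ± 8.6 to 664 ± 20 FPKM (0.76, limma adjusted p = 2.54e-07; 0.29 rescaled).

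Shares of an isoform within its family do not depend on the scaling of the libraries. Cox6a2 made up 8.5%, 8.0% and 8.4% of the subunit 6a FPKM in WT and 0.029%, 0.066% and 0.065% in KO, while the family sum went from 970 ± 7.3 to 1571 ± 10 FPKM. In the ring subunit c of ATP synthase, encoded by 3 genes for the same mature protein, Atp5g1 made up 48.5%, 48.3% and 49.3% in WT and 24.8%, 23.7% and 24.3% in KO. Atp5g3 made up 50.3%, 50.6% and 49.6% in WT and 74.7%, 75.3% and 74.9% in KO. Atp5g2 was minor, at 1.13% ± 0.068 in WT and 0.743% ± 0.26 in KO. By FPKM, the near-even shares of Atp5g1 and Atp5g3 in WT thus became a 24.3% to 75.0% split in KO, with no overlap between libraries. The size of these shares depends on the exonic lengths behind FPKM, 4912 bases for Atp5g1 but 2181 for Atp5g3. Recovered reads of Atp5g1 numbered 50794 for WT but only 17859 for KO, whereas Atp5g3 had 23257 for WT, then 24461 for KO. By reads, Atp5g1 was therefore the larger of the pair in WT. The direction of the shift does not depend on these lengths. The summed FPKM of the 3 genes was 472 ± 16 in WT and 403 ± 4.0 in KO. Cox4i2 took 0.165% ± 0.013 in WT and 0.294% ± 0.069 in KO, and Cox6b2 0.337% ± 0.025 and 0.592% ± 0.097. Cox7a1, at 2.85% ± 0.22 and 2.33% ± 0.32, overlapped between genotypes. An exact two-sided permutation test of 8 shares gave p = 0.1, the smallest that 3 against 3 allows, for 6 of them, 0.2 for Cox7a1 and 0.4 for Cox8b. Adjusted over the 8, the 6 stood at 0.133, so none could pass 0.05 in this design.

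**Figure D3:**
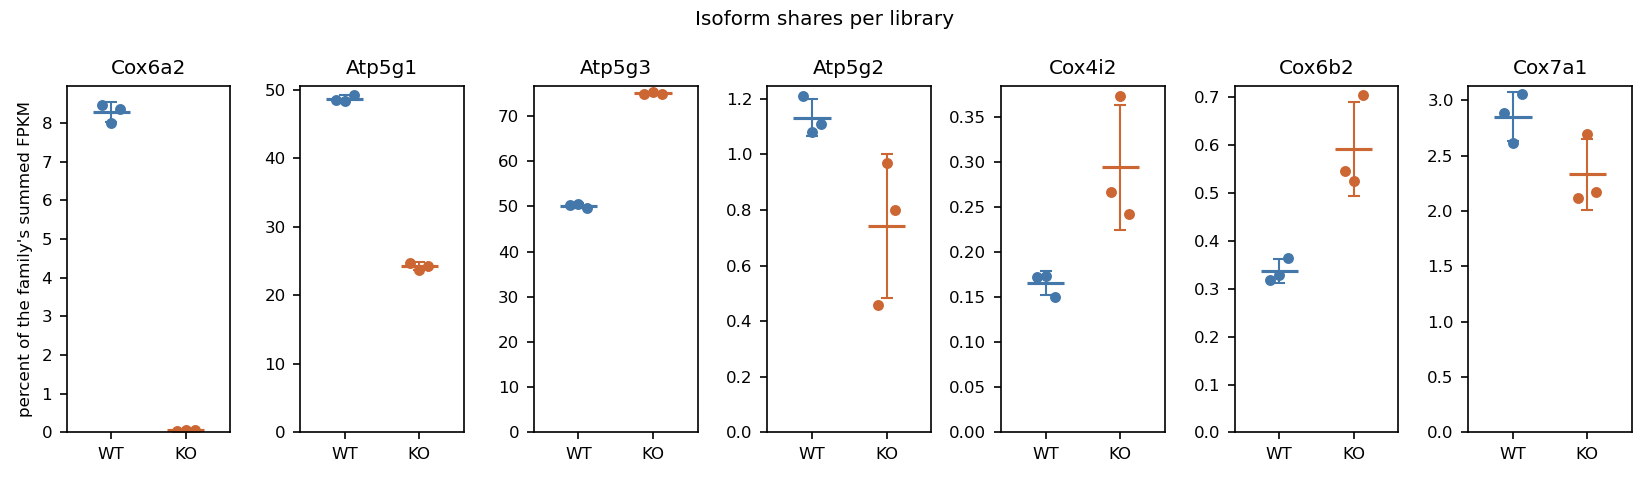
Percent of the family's summed FPKM held by 7 isoforms in each library; points are libraries, lines means and bars SD (n = 3), and each panel has its own axis from 0. Cox6a2 nearly disappears in KO, Atp5g1 goes from 48.7% to 24.3% and Atp5g3 from 50.2% to 75.0%.

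Assembly factors of complex IV held 2 of the 5 falls of at least 2-fold. Of 9 with Cox symbols, 8 were tested: 3 were higher, 4 lower and 1 did not pass, and rescaled 1 was higher, 5 were lower and 2 did not pass. Across all genes 38.0% were higher and 40.4% lower, and rescaled 22.8% and 59.1%. Cox10 (ENSMUSG00000042148, chr11:63962627-64079468), which makes haem O on the way to the haem A of complex IV, read 72.2, 70.7 and 72.6 FPKM in WT and 27.1, 27.3 and 29.0 in KO. The KO values were all below WT, by -1.34 (SE 0.04, limma adjusted p = 6.87e-08). Cox15, which converts haem O to haem A, read 0.962, 0.912 and 0.65 FPKM in WT and 0.908, 0.643 and 1.2 in KO and was below the minimum for testing. Cox18 (ENSMUSG00000035505, chr5:90214724-90224001), which inserts the mitochondrially made Cox2 into the inner membrane, read 19.2, 21.5 and 20.5 FPKM in WT and 8.74, 9.32 and 8.98 in KO. Its difference was -1.10 (SE 0.06, limma adjusted p = 1.43e-06), again without overlap. The copper chaperone Cox17 differed by -0.43 on 362 and 163 reads, and Cox16 by -0.32. Cox19, a further copper factor, rose from 25.8 ± 0.75 to 39.5 ± 1.5 FPKM (0.60; 0.14 rescaled). Cox14 and Cox11 were higher by 0.41 and 0.33 as deposited and stood at -0.06 and -0.07 rescaled, not passing. Cox11, Cox16 and Cox20 share 48.3%, 56.8% and 91.1% of their exonic bases with Tom1l1, Gm20498 and Hnrnpu and are uncertain.

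Of the other assembly factors of complex IV, listed from general knowledge, 18 were tested: 10 were lower, 4 higher and 4 did not pass, and rescaled 15 were lower, 2 higher and 1 did not pass. Beside these and the counts for complexes III and V below, 40.4% of all genes were lower and 38.0% higher. Rescaled, 59.1% of all genes were lower and 22.8% higher. Sco1, a copper chaperone for Cox2, read 5.73, 5.76 and 4.71 FPKM in WT and 1.16, 1.10 and 0.827 in KO (-1.66, limma adjusted p = 4.34e-06). Hccs, which attaches haem to cytochromes c and c1, read 9.61, 9.45 and 9.57 FPKM in WT and 4.19, 3.92 and 4.14 in KO (-1.05, limma adjusted p = 1.64e-06). Both were below WT in every KO library. For complex III, 3 of 6 assembly factors were lower, 1 higher and 2 did not pass, and rescaled 4 were lower and 2 did not pass; Uqcc1, needed for making cytochrome b, read 23.8, 20.8 and 23.2 FPKM in WT and 8.15, 8.45 and 9.13 in KO (-1.30, limma adjusted p = 1.52e-06). For complex V, Atpif1, Tmem70 and Atpaf1 were lower and Atpaf2 higher; Atpif1, the inhibitor of ATP hydrolysis, stood at 816 ± 35 FPKM in WT and 604 ± 4.8 in KO (-0.43), while Atpaf2 differed by 0.19, and by -0.27 rescaled.

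In complex V, 15 of 17 subunits were tested, with 8 higher, 6 lower and 1 not passing as deposited (38.0% and 40.4% of all genes were higher and lower) and 2 higher, 11 lower and 2 not passing rescaled (22.8% and 59.1%). The catalytic head was split. Atp5a1, subunit alpha, read 365, 372 and 375 FPKM in WT and 435, 428 and 435 in KO, a difference of 0.22 that was -0.25 rescaled. Atp5b, the catalytic subunit beta, read 437, 443 and 452 FPKM in WT and 381, 375 and 388 in KO, a difference of -0.22 (-0.69 rescaled). Alpha and beta, present in the enzyme in equal number, thus went in opposite directions as deposited and fell together rescaled. Atp5c1, the central shaft gamma, read 399, 407 and 395 FPKM in WT and 374, 381 and 388 in KO, a difference of -0.07 whose call was lost without WT replicate 2 or KO replicate 1. The remaining head subunits Atp5d (delta) and Atp5e (epsilon) differed by 0.50 and -0.32, and by 0.03 and -0.79 rescaled.

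The stalk and membrane part held the larger changes. Atp5h (ENSMUSG00000034566, chr11:115415689-115419962), subunit d of the peripheral stalk, read 191, 202 and 200 FPKM in WT and 333, 319 and 326 in KO. Its rise of 0.72 (SE 0.03, limma adjusted p = 4.36e-07) was 0.25 rescaled, and the groups did not overlap. Atp5f1, subunit b of the same stalk, was close behind at 0.67 (0.21 rescaled), from 117 ± 4.4 to 186 ± 2.3 FPKM. Atp5o, which joins stalk and head, read 498, 510 and 520 FPKM in WT and 533, 541 and 537 in KO, a difference of 0.08 that was -0.39 rescaled and -0.04 quantile-normalized. Atp5o is uncertain, sharing 47.9% of its exonic bases with other genes. Of these, D430001F17Rik and Gm15976 were at 0, and ENSMUSG00000116933 had no deposited value. Of the smaller stalk and membrane subunits, Atp5j and Atp5j2 differed by 0.15 and 0.48, and by -0.32 and 0.01 rescaled. Atp5l, at -0.18, lost its call without WT replicate 1 or 2 or KO replicate 1 or 3, and Atp5k did not pass (limma adjusted p = 0.249).

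The ring subunit genes moved apart. Atp5g1 (ENSMUSG00000006057, chr11:96068852-96075670) read 220, 230 and 239 FPKM in WT and 101, 96.0 and 96.9 in KO, a fall of -1.22 (SE 0.04, limma adjusted p = 9.37e-08). Atp5g3 read 229, 241 and 240 FPKM in WT and 303, 305 and 298 in KO, a difference of 0.35 that was -0.12 rescaled. Atp5g2 read 5.50, 5.15 and 5.38 FPKM in WT and 1.87, 3.93 and 3.18 in KO, a difference of -0.70 (SE 0.19, limma adjusted p = 0.01). The pseudogene Gm10039, whose sequence differs from Atp5g1 by the single base shown above, was listed at 110 FPKM in WT and 61.7 in KO and so was lower in KO as well. The match covers 411 bases, while Atp5g1 is scaled over 4912, so the FPKM of the 2 genes do not compare their reads. How reads were divided between the 2 is not given in the sources used here. The gene matched by name alone, Atp5sl (ENSMUSG00000057229, chr7:25619414-25625551), now called Dmac2 and known in complex I assembly, read 12.5, 11.4 and 12.4 FPKM in WT and 4.35, 3.60 and 4.79 in KO (-1.33, SE 0.09, limma adjusted p = 7.92e-06). Atp5s did not pass (-0.03).

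Of the 6 mitochondrially encoded members, 2 carried nearly all the reads and 4 were listed at or near 0. mt-Co1 (chrM:5328-6872), the catalytic subunit of complex IV, read 886, 909 and 838 FPKM in WT and 1095, 1128 and 1118 in KO. Its difference was 0.34 (SE 0.03, limma adjusted p = 3.21e-05), and -0.13 rescaled. mt-Co2, mt-Co3 and mt-Atp8 were listed at 0 in all 6 libraries and mt-Atp6 in 5, with 31 reads and 3.56 FPKM in KO replicate 1, although every respiring cell makes these mRNAs. An absence of expression therefore cannot be read from them. The first 60 bases of 3 of these genes are shown because the same letters also stand in a nuclear copy on chromosome 1: Gm28661 for mt-Co2, Gm10925 for mt-Atp6 and Gm28437 for mt-Co3.
mt-Co2, chrM:7013-7072: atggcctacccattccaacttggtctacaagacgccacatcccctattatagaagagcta
mt-Atp6, chrM:7927-7986: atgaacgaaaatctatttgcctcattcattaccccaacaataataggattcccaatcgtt
mt-Co3, chrM:8607-8666: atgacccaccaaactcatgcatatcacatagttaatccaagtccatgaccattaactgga
The identity ran without a mismatch over 681 bases for mt-Co2, 678 for mt-Atp6 and 783 for mt-Co3. The copies lie side by side on the minus strand, Gm28437 at chr1:24613189-24613971, Gm10925 at chr1:24613974-24614651 and Gm28661 at chr1:24614885-24615565 (GRCm38). Gm10925 was listed at 8.20 FPKM in WT and 9.11 in KO, more than mt-Atp6 itself, and the other 2 copies at under 0.2. mt-Cytb had no such copy among the annotated transcripts. mt-Co1 had one of 1545 bases at 97.6% (Gm13340) and one of 483 bases at 99.8% (Gm29216), both under 0.6 FPKM, and is therefore uncertain. Matches of at least 95% identity to annotated transcripts covered 100% of mt-Co2, 99.9% of mt-Co3, 99.6% of mt-Atp6 and 21.1% of mt-Atp8. Sequence outside annotated transcripts, such as that between Gm10925 and Gm28661, was not searched. The value for mt-Atp8 is therefore a minimum and does not show that a copy is lacking. Of the complex I genes in mitochondrial DNA, mt-Nd4l was covered over 99.0% and listed at 0, and mt-Nd3 over 99.1% and listed at 18 reads in WT and 54 in KO. mt-Nd4, covered over 63.6%, stood at 136 ± 6.1 FPKM in WT and 251 ± 4.2 in KO. mt-Nd1 and mt-Nd6 had no copy among the annotated transcripts and were read in every library. The part of the copies in the values of 0 was not tested, and the treatment of reads with several matches is not given in the sources used here.

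**Figure D4:**
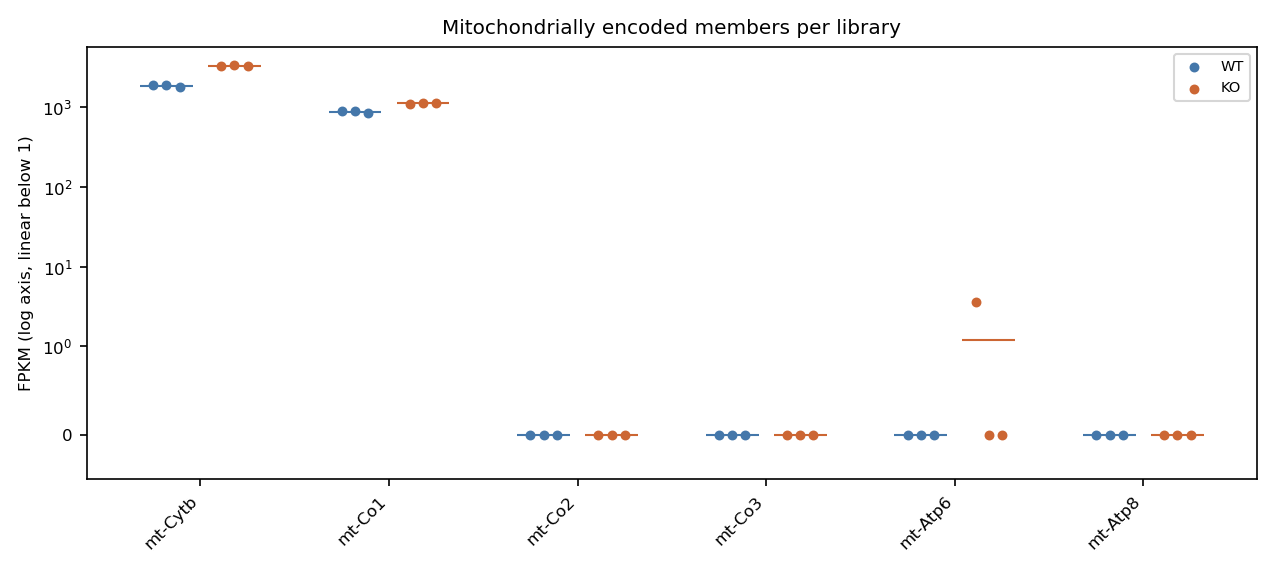
FPKM per library of the 6 mitochondrially encoded members (log axis, linear below 1); points are libraries and lines means of 3. mt-Cytb and mt-Co1 are higher in every KO library as deposited, where mt-Co1 is lower once libraries are rescaled, and the other 4 are at 0 but for 1 KO library of mt-Atp6.

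The mitochondrially encoded members, in effect mt-Cytb and the uncertain mt-Co1, made up 13.2%, 12.8% and 12.2% of the members' summed FPKM in WT and 16.9%, 17.2% and 17.2% in KO. The KO libraries were all above the WT libraries, and this share too does not depend on scaling. Of the other mitochondrially encoded mRNAs, which code for complex I, 6 of 7 were tested: 4 were higher and 2 did not pass, and rescaled 1 was higher, 4 were lower and 1 did not pass. The shares over all genes were 38.0% higher and 40.4% lower, and rescaled 22.8% and 59.1%. mt-Nd4 differed by 0.88 and mt-Nd1, the most abundant at 2364 ± 125 FPKM in WT and 2485 ± 66 in KO, did not pass (0.07). mt-Nd3 read 3.17, 0.318 and 0.407 FPKM in WT and 4.04, 5.80 and 2.89 in KO, on 18 and 54 reads. WT replicate 1 overlapped KO, and the difference (1.37, limma adjusted p = 0.0253) did not pass rescaled. The summed FPKM of all members was 21223 to 21785 in WT and 25772 to 25959 in KO, which was 4.57% to 4.63% of all FPKM in WT and 3.97% to 3.98% in KO. By complex, the KO sum as deposited was 1.290-fold the WT sum for complex III, 1.178-fold for complex IV subunits and 1.074-fold for complex V. For nuclear-encoded genes alone it was 1.151-fold, 1.167-fold and 1.074-fold, so the first place of complex III depended on mt-Cytb. The sum over all genes rose more than any of these, from 463683 to 475654 FPKM in WT to 649611 to 653819 in KO. Each complex was therefore a smaller share of all FPKM in KO.

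The neighbouring complexes I and II also moved in both directions. Of 36 nuclear subunits of complex I, 21 were higher, 12 lower and 3 did not pass, and rescaled 2 were higher and 30 lower. Of the 4 subunits of complex II, 3 were higher and 1 lower, and rescaled 1 and 3. For both complexes the shares over all genes were 38.0% higher and 40.4% lower, and rescaled 22.8% and 59.1%. Among 10 tested regulators of respiratory gene expression and mitochondrial DNA, 6 were lower, 2 higher and 2 did not pass (40.4% and 38.0% of all genes were lower and higher), and rescaled 8 were lower, 0 higher and 2 did not pass (59.1% and 22.8%). Pprc1, a coactivator related to PGC-1, read 3.94, 3.73 and 4.03 FPKM in WT and 0.426, 0.560 and 0.370 in KO (-1.76). Every KO library was below every WT library, but Pprc1 passed the minimum for testing through WT alone, so its call is no support. Tfam, the packaging and transcription factor of mitochondrial DNA, was lower by -0.53, from 6.14 ± 0.38 to 3.95 ± 0.31 FPKM. Gabpa, an ETS factor known at promoters of respiratory genes, was lower by -0.56, from 2.24 ± 0.21 to 1.22 ± 0.30 FPKM. Gabpa shares exonic bases with Atp5j, at 271 FPKM in WT and 301 in KO, so its weak value is uncertain. Nrf1, also known at such promoters, was higher by 0.30, from 5.27 ± 0.13 to 6.71 ± 0.23 FPKM. Rescaled, Nrf1 stood at -0.11 and did not pass. Yy1 did not pass (0.04), and Ppargc1a was at 0 in all libraries.

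Promoter windows of 300 bases (250 before to 50 after the start, RefSeq, GRCm38.p6) were found for 42 of the 54 nuclear-encoded members. They were searched on both strands for GCGCATG, a core of the NRF1 site, CCGGAAG, a core of the ETS site bound by GABPA, and AAGATGG, a core of the YY1 site. Matches of different motifs may overlap each other, and each motif was counted separately. The NRF1 letters stood in 8 of 42 windows (19.0%, against 4.04% of all 27025 promoters), the ETS letters in 14 (33.3% against 9.12%) and the YY1 letters in 6 (14.3% against 6.48%). The 27025 promoters were not limited to genes read in these libraries, whereas most members with a window were read. Whether the contrast is particular to the members was not tested. Among members with a window, the ETS letters stood in 7 of 20 higher and 4 of 14 lower genes, and the NRF1 letters in 2 of 20 and 5 of 14. The 150 bases before the start are shown for 3 members that changed in either direction and hold the ETS letters, in capitals; all lie on the minus strand.
Cox6a1, higher, chr5:115348959-115349108: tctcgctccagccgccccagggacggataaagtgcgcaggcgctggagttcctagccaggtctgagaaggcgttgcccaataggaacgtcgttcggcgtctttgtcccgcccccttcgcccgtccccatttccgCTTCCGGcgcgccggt
Uqcrh, higher, chr4:116075071-116075220: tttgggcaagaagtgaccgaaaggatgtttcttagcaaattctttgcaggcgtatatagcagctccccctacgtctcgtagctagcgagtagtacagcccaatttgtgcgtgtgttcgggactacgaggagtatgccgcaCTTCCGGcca
Cox10, lower, chr11:64079473-64079622: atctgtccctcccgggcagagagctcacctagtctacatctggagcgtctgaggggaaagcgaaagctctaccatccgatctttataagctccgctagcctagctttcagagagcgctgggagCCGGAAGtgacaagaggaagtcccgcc
A match is a description of letters, and the same letters stand upstream of members that rose and of one that fell.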

How the data were processed

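RNA-seq libraries of L-GMP, 3 WT and 3 KO, were made by Smart-seq2 and Nextera XT and sequenced on a NextSeq 500, per the labels' protocols. The values deposited by the authors are FPKM, that is, reads per gene scaled to gene length and to library size, in 1 table of 6 libraries. Per the submitters' processing notes, CASAVA, bcl2fastq, STAR 2.5.3a and DESeq2 1.18.1 were used on mm10; which counter was used, whether it used strand and what it did with reads of several matches is not given in the sources used here. Genes that share exonic bases or a near-identical transcript with another gene are therefore uncertain.

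For the test, 9108 genes averaging 1 FPKM or more across libraries were put on the log2(FPKM + 1) scale. The limma 3.58.1 fit (R 4.3.3) had genotype as its factor and a trend of variance with level; p-values were two-sided, with Benjamini-Hochberg adjustment and a threshold of 0.05. This scale understates changes of weak genes. Whole reads were recovered from FPKM times exonic length (GENCODE M21, GRCm38) for 21131 of 21132 genes above 0, within a tolerance of 0.001; for 4650 of them the length was searched for. They gave depths and 1 alternative, and cover counting error only. Replicates differed by 2.51 to 3.11 chi-square per gene, more than counting noise, so none was treated as a re-deposited library; this does not show that they came from separate mice. Transcripts were compared by BLAST at 95% identity and coding sequences by global alignment. The test was tried on simulated data. Python 3.11.15 with pandas 2.3.3 and scipy 1.17.1 made the tables.

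Named with each library's value were up to 5 members with the largest change in each direction, detected isoforms, mitochondrially encoded members and the catalytic core; outside the members, the targeted genes and listed genes changed at least 2-fold. Members and lists were chosen with earlier results of these data known. The alternatives are in the closing section.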

Additional observations from a re-analysis of the deposited data

How the results depend on the processing

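Rescaling the libraries to equal sums changed most: 7 members were then higher and 39 lower, beside 2074 genes higher in all. The sign reversed there for Atp5a1 (-0.25), Atp5g3 (-0.12), Atp5j (-0.32), Atp5o (-0.39), Cox11 (-0.065), Cox14 (-0.062), Cox4i1 (-0.44), Cox5a (-0.15), Cox6b1 (-0.24), Cox6c (-0.28), Cox7a2l (-0.23), Cox8a (-0.14), Uqcr10 (-0.23), Uqcrfs1 (-0.27) and mt-Co1 (-0.13), and with quantile normalization for Atp5o (-0.040) and Cox4i1 (-0.18). A minimum mean of 5 FPKM, which tests fewer genes, gave 2072 genes higher and 2383 lower, and no minimum, which tests more, gave 5769 lower. With assembly factors left out, the mitochondrially encoded share of the members' FPKM in KO was 17.6%. Without 1 library at a time, 25 members were higher and 17 to 20 lower, and 3305 to 3380 genes were higher and 3507 to 3603 lower. Quantile normalization gave 23 members higher and 23 lower, no trend 24 and 17. The planned edgeR test was not run, since the deposited unit is FPKM; voom on recovered reads, added after seeing the data, gave 25 and 20, and leaving out the 6 uncertain members, also added, 22 higher. The replicate block gave 3420 genes higher and 3620 lower and kept the call of all 52 members. Deviations from the group means correlated at 0.009, -0.012 and -0.017 between same-numbered libraries. No effect shared by number was thus seen, but this cannot show whether the samples were collected in pairs. Depth limits Cox4i2, Cox6b2, Cox8b, Atp5g2, Cox11, Cox15, Cox17, Cox20 and the KO value of Cox6a2, each on at most 409 reads a genotype.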
